A study of Mus musculus with 40 samples.

Results

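Fast inhibition in the cortex runs through GABA-A receptors, which are chloride channels built from alpha, beta and gamma or delta subunits, and slow inhibition runs through GABA-B receptors, which act on G proteins. Transcripts of 7 GABA receptor subunit genes were measured in mouse cortex after high-frequency head impact (HF-HI) with and without memantine, which blocks the NMDA class of glutamate receptors. The members were taken by gene symbol and comprised 3 alpha subunit genes (Gabra2, Gabra3 and Gabra4), 2 beta subunit genes (Gabrb1 and Gabrb2) and both GABA-B receptor genes (Gabbr1 and Gabbr2). Each gene had 1 RefSeq transcript in the deposited table, which gave 7 of 6831 transcripts. The alpha subunit sets where in the neuron a GABA-A receptor sits and which drugs it answers to, and a beta subunit is needed for assembly and forms part of the GABA site. GABA-B receptors work as a pair in which the Gabbr1 product binds GABA and the Gabbr2 product carries the complex to the surface and couples it to the G protein.

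The 40 libraries came from dissected cortex of male C57BL/6 mice aged 12 weeks, taken 24 h after the last session. Sham handling or HF-HI was combined with saline or memantine into 4 groups of 10, and the injection had been given 1 h before each session. The labels name no transgene or deletion for any group. Summed reads over the tabled transcripts lay between 13322399 and 17529606 per library. Nothing in the labels tied libraries to a sequencing batch or to a separate cage or litter, so the p-values below measure the spread between these libraries. Values are normalised counts, which are reads divided by the size factor of the library. Changes are in log2 units of that count unless the deposited scale is named. The deposited scale is variance-stabilised log2 with a lowest value of 10.4. It compresses changes of less abundant transcripts, so sizes on it cannot be compared between transcripts. For HF-HI against sham under saline, Gabra2 had -0.067 on that scale and -0.14 in log2 counts, and Gabrb2 had 0.053 and 0.064.

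The deposited table held abundant transcripts only, and the members spanned a wide range of it. Gabbr1 (NM_019439, chr17:37045966-37074305) had a mean of 12430 normalised counts over the 40 libraries, and 1.57% of transcripts had a higher mean. Gabrb1 (NM_008069, chr5:71657921-72149572) had the lowest mean of the members, 1041 normalised counts, and 59.6% of transcripts lay above it. The others were Gabrb2 (NM_008070, chr11:42419515-42632591), Gabbr2 (NM_001081141, chr4:46662318-46991714), Gabra4 (NM_010251, chr5:71569734-71658308), Gabra3 (NM_008067, chrX:72432676-72656919) and Gabra2 (NM_008066, chr5:70958392-71095849). These positions are whole genes in RefSeq on GRCm38.p6, which is mm10. Gabra2, Gabra4 and Gabrb1 lie in this order on chromosome 5, with 473884 bases between Gabra2 and Gabra4. The gene records of Gabra4 and Gabrb1 overlap by 388 bases.

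The 250 bases before the annotated starts of these 3 genes are shown for the following reasons. Gabra2 was the member with the clearest difference between groups. Gabrb1 was the member with the highest correlation with Gabra2 over the 40 libraries, although within groups r ran from 0.18 to 0.87. Gabra4 lies between them and did not follow Gabra2. The sequences are from RefSeq (GRCm38.p6), at chr5:71095850-71096099 on the minus strand for Gabra2, chr5:71658309-71658558 on the minus strand for Gabra4 and chr5:71699682-71699931 on the plus strand for Gabrb1, all written 5′ to 3′ with GC boxes in capitals.
Gabra2: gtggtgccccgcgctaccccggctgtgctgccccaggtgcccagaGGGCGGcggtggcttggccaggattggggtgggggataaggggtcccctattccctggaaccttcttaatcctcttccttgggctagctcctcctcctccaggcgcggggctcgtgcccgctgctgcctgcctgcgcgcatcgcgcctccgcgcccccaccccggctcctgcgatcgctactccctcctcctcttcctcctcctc
Gabra4: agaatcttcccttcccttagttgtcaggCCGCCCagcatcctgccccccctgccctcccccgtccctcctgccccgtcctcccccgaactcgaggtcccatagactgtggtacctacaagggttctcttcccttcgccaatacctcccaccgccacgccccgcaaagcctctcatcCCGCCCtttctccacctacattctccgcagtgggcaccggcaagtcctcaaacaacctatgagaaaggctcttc
Gabrb1: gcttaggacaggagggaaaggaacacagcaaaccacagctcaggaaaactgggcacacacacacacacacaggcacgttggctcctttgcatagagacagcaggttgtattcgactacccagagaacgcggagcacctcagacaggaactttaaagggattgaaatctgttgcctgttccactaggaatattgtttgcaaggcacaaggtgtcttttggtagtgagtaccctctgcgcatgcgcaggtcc
The GC box was searched as GGGCGG on both strands and stood once in the Gabra2 window, at 2 places in the Gabra4 window and nowhere in the Gabrb1 window. It was found in 32.7% of 32851 promoter windows of this length. The TATA box (TATAAA, 12.4% of windows), the cyclic AMP response element (TGACGTCA, 1.55%) and an EGR motif (GCGTGGGCG, 0.536%) had no match in these 3 windows. The G and C content was 70% before Gabra2, 61.2% before Gabra4 and 50.8% before Gabrb1, against a median of 52.4% over all windows. The Gabrb1 window precedes the start of the transcript that was counted, which lies downstream of the start of the gene record.

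Per kilobase of transcript, the beta subunit gene Gabrb2 and the GABA-B gene Gabbr1 were the most abundant members. Gabrb2 had 2620 ± 121 normalised counts per kilobase (SD, n = 40 libraries), and Gabbr1 had 2368 ± 71.3. Gabbr2 followed with 902 ± 61.1, Gabra4 with 768 ± 60.4, Gabra3 with 648 ± 37.4, Gabra2 with 246 ± 19.2 and Gabrb1 with 75.8 ± 4.66 normalised counts per kilobase. The lowest library for Gabbr1 lay above the highest for Gabbr2, and the same held for Gabra3 over Gabra2 and for Gabra2 over Gabrb1. The ranges of other neighbours overlapped, although within a library Gabrb2 exceeded Gabbr1 in 40 of 40 libraries, Gabbr2 exceeded Gabra4 in 39 and Gabra4 exceeded Gabra3 in 38. Lengths were those of matched GENCODE transcripts, and 13737 bases were used for Gabrb1, so its place at the bottom rests on that long form. Of the GABA-B pair, the transcript for the ligand-binding subunit was thus 2.63 times as abundant per kilobase as that of its partner.

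**Figure D1:**
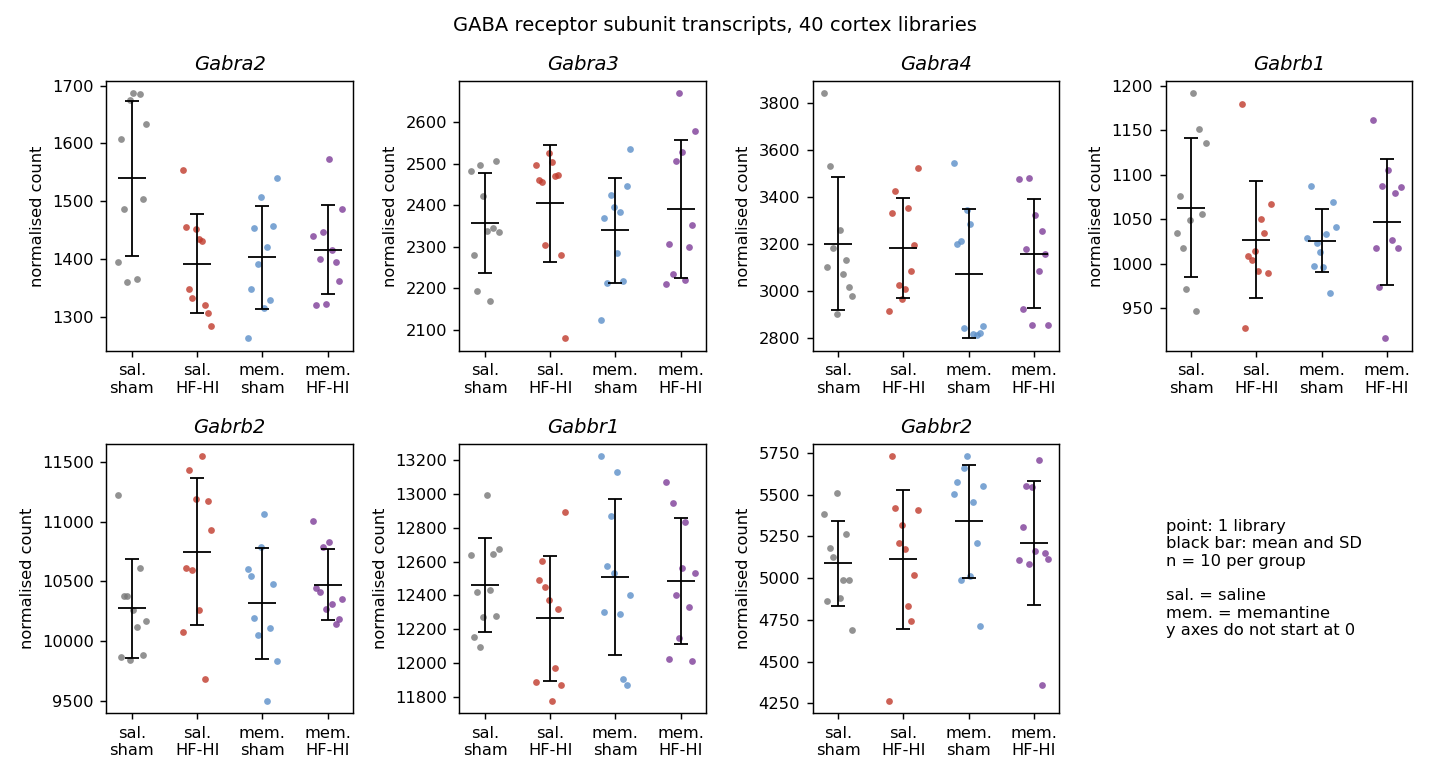
Normalised counts of the 7 members in each of 40 cortex libraries, by group (points, 1 library each), with the mean and SD over 10 libraries in black; y axes do not start at 0. Gabra2 had a mean of 1540 in saline sham and between 1393 and 1417 in the other groups, while the groups overlapped for every member.

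HF-HI was first compared with sham handling under saline, which asks what the impacts alone did to these transcripts a day later. Gabra2 fell and Gabrb2 rose at a criterion of unadjusted p under 0.05, and the other 5 members did not pass it. In the limma fit 9.53% of all transcripts passed that criterion, so 2 of 7 is set against that share. At an adjusted p under 0.1, 0 members passed and 0.205% of all transcripts did.

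Gabra2, whose alpha subunit is common in the forebrain and at the axon initial segment, ranged from 1362 to 1687 normalised counts in saline sham with a median of 1556. In saline HF-HI it ranged from 1286 to 1554 with a median of 1390. The ranges overlapped, with 9 of 10 saline HF-HI libraries below the saline sham mean and 5 of 10 below the lowest saline sham library. The mean went from 1540 ± 134 to 1393 ± 85.7 (SD, n = 10 each), a log2 change of -0.14 with an SE of 0.044, or -9.42% with a 95% interval of -14.8% to -3.7%. The limma p was 0.0021 (adjusted p = 0.25), and a two-sided permutation test of the counts gave p = 0.0107. Leaving out any 1 of the 40 libraries kept p at or below 0.00593.

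Gabrb2, the beta subunit found in most GABA-A receptors of the adult cortex, ranged from 9843 to 11219 normalised counts in saline sham with a median of 10214. In saline HF-HI it ranged from 9681 to 11549 with a median of 10774. Here 7 of 10 saline HF-HI libraries were above the saline sham mean, and the lowest library of all in this comparison was a saline HF-HI library. The means were 10273 ± 417 and 10749 ± 613, a log2 change of 0.064 with an SE of 0.028, or 4.56% higher with a 95% interval of 0.469% to 8.81%. The limma p was 0.0294 (adjusted p = 0.472). A two-sided permutation test gave p = 0.0575, the fit on the saline libraries alone gave p = 0.057, and leaving out any 1 of 7 libraries raised p to between 0.0539 and 0.0717, so the call for Gabrb2 depended on the fit. Those libraries were saline sham replicates 2, 5 and 9 and saline HF-HI replicates 3, 5, 7 and 9.

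Of the members that did not pass, Gabrb1 had a log2 change of -0.05 with an SE of 0.04 (p = 0.224, adjusted p = 0.782), and 8 of 10 saline HF-HI libraries were below the saline sham mean. Gabbr1 had a log2 change of -0.023 with an SE of 0.0199 (p = 0.255, adjusted p = 0.801), and 4 of 10 saline HF-HI libraries were below the saline sham range. Gabra3, Gabra4 and Gabbr2 had p-values of 0.456, 0.891 and 0.916 in that order in the same limma fit. Their 95% intervals were -3.33% to 7.61% for Gabra3, -7.23% to 6.84% for Gabra4 and -5.77% to 6.7% for Gabbr2. The median change over the 7 members was -0.0043 on the deposited scale, beside -4.7e-05 over all 6831 transcripts.

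**Figure D2:**
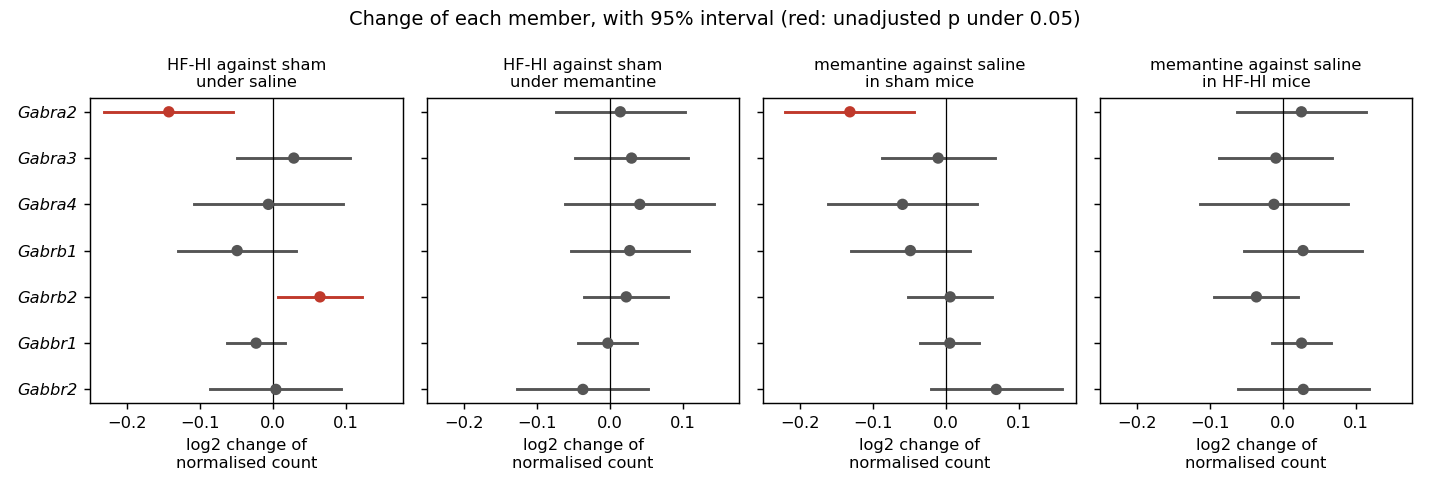
Log2 change of the normalised count of each member in 4 comparisons (points), with the 95% interval from limma (lines) and unadjusted p under 0.05 in red. The Gabra2 interval lay below 0 for HF-HI under saline and for memantine in sham mice, both of which use the saline sham libraries, and the Gabrb2 interval lay above 0 under saline only among these 4 comparisons.

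Tissue markers moved in the same comparison and are given beside these changes, since in bulk tissue fewer cells of a type and less RNA per cell cannot be told apart. Against 9.53% of all transcripts past unadjusted p under 0.05 in saline HF-HI, a striatal marker list had 9 of 23 lower and 0 higher. Its summed level was 59089 ± 7265 normalised counts in saline sham (range 44063 to 70296) and 52340 ± 4302 in saline HF-HI (range 44992 to 61286). With the mean of the striatal list as a covariate, Gabra2 kept a change of -0.055 on the deposited scale (SE 0.022, p = 0.0161, adjusted p = 0.727 in limma), against -0.067 without it. Gabrb2 had 0.029 with that covariate (SE 0.024, p = 0.224), against 0.053 without it.

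The summed levels of the interneuron, striatal and hippocampal lists, like Gabra2, had their highest means in saline sham. Those of the excitatory cortical neuron, astrocyte, oligodendrocyte, microglial, endothelial and thalamic lists had their highest means in other groups. With memantine the striatal list had 58779 ± 6748 normalised counts in sham mice and 57002 ± 6598 after HF-HI. The interneuron list had 35418 ± 1317 normalised counts in saline sham and 33949 ± 958 after HF-HI with saline. With memantine it was 34031 ± 861 in sham mice and 34206 ± 1266 after HF-HI. In saline HF-HI 6 of its 15 transcripts were lower and 1 was higher at unadjusted p under 0.05, against 9.53% of all transcripts. The lower ones included Sst, Calb1 and Gad2, and the higher one was Pvalb. But the median change of the list was -0.002 on the deposited scale, and 1 of the 15 was at 0 in at least 1 library. With the striatal covariate 0 of the 15 were higher and 0 lower in limma, where 5.72% of all transcripts passed. The hippocampal list held only Wfs1 and Cpne7 and went from 1724 ± 399 in saline sham to 1510 ± 279 in saline HF-HI. With memantine it had 1588 ± 168 in sham mice and 1624 ± 245 after HF-HI. With the interneuron mean as a covariate the Gabra2 change was -0.046 (p = 0.042) and with the hippocampal mean -0.049 (p = 0.00878), both on the deposited scale and from limma. These covariates were chosen after the data were seen, and they were themselves measured after the impacts.

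The same contrast under memantine asks whether impacts had an effect when the drug was present. At unadjusted p under 0.05, 0 of 7 members passed in limma, where 4.61% of all transcripts did, and 0 passed the adjusted threshold, where 0.0146% did. The limma p-values ran from 0.413 to 0.905, and 5 of the 7 changes were above 0. Gabra2 ranged from 1264 to 1541 normalised counts in memantine sham with a median of 1407, and from 1321 to 1574 in memantine HF-HI with a median of 1409. Its means were 1403 ± 89 and 1417 ± 76.6, which is 1.03% higher with a 95% interval of -4.97% to 7.4%. For Gabrb2 the means were 10314 ± 468 and 10473 ± 296, or 1.59% higher with an interval of -2.38% to 5.73%. Over the 7 members the outer bounds of these intervals were -8.37%, for Gabbr2, and 10.4%, for Gabra4.

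Memantine was then compared with saline in sham mice, which measures the drug without impacts. Gabra2 fell and was the single member of 7 to pass unadjusted p under 0.05, in a limma fit where 7.51% of transcripts passed, and 0 members passed the adjusted threshold, where 0.0293% did. Its mean went from 1540 in saline sham to 1403 in memantine sham, a change of -8.73% with a 95% interval of -14.1% to -2.97% (p = 0.00412, adjusted p = 0.475), and 9 of 10 memantine sham libraries were below the saline sham mean. The permutation test gave p = 0.0169. This comparison and the saline impact comparison share the same 10 saline sham libraries, so their Gabra2 values are not independent. Gabbr2 was 4.88% higher with an interval of -1.44% to 11.6% (p = 0.125, adjusted p = 0.735), and its p was 0.0492 without memantine sham replicate 9.

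In HF-HI mice the drug comparison had 0 of 7 members at unadjusted p under 0.05 in limma, where 3.91% of transcripts passed, and 0% of transcripts passed the adjusted threshold. The p-values ran from 0.203 to 0.818. Gabra2 had 1393 ± 85.7 normalised counts with saline and 1417 ± 76.6 with memantine, or 1.8% higher with an interval of -4.25% to 8.22%. The outer bounds of the intervals over the 7 members were -7.58% and 8.51%.

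The interaction term measures whether the impact change under memantine differed from that under saline. Gabra2 was the single member of 7 past unadjusted p under 0.05, with an impact change 0.16 log2 units higher under memantine than under saline (SE 0.062, p = 0.0144, adjusted p = 0.999 in limma). In this fit 3.73% of all transcripts passed at unadjusted p and 0% passed the adjusted threshold. With the interneuron list mean as a covariate the term had p = 0.112. Gabrb2 had a log2 interaction of -0.041 (p = 0.306), so its change under saline was not shown to differ from that under memantine.

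Averaged over both drug arms, the impact contrast had 2 of 7 members past unadjusted p under 0.05, against 9.66% of all transcripts, and 0 past the adjusted threshold in limma, against 0.425%. They were Gabra2 at -0.03 (p = 0.042, adjusted p = 0.505) and Gabrb2 at 0.036 (p = 0.0369, adjusted p = 0.491), both on the deposited scale. In log2 counts these changes were -0.064 for Gabra2 and 0.044 for Gabrb2, or -4.34% and 3.07%. The Gabra2 average joined unlike changes, -0.067 under saline and 0.0066 under memantine on the deposited scale. Leaving out 1 library at a time, Gabra2 passed in 20 of 40 limma fits and Gabrb2 in 27 of 40. Neither member passed with the striatal covariate, with p = 0.154 and 0.234. Memantine averaged over sham and HF-HI mice had 0 of 7 past unadjusted p, against 8.11% of transcripts, and 0 past the adjusted threshold, against 0.0146%, with limma p-values from 0.0877 to 0.713.

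Ratios between subunits compare members within each library and so do not depend on its size factor. Over 4 ratios and 4 comparisons, 16 two-sided permutation tests were run. The log2 ratio of Gabra2 to Gabra3 was -0.62 ± 0.15 in saline sham and -0.79 ± 0.067 in saline HF-HI (SD, n = 10 each), and 10 of 10 saline HF-HI libraries lay below the saline sham mean. The difference of -0.17, or -11.2% in the ratio, had p = 0.00528 in the permutation test and an adjusted p of 0.0845 over the 16. In memantine sham the log2 ratio was -0.74 ± 0.063, with p = 0.0331 against saline sham in the permutation test and an adjusted p of 0.265, again on the same saline sham libraries. Gabrb1 to Gabrb2 went from -3.28 ± 0.12 in saline sham to -3.39 ± 0.14 in saline HF-HI, with a permutation p of 0.0642 and an adjusted p of 0.343. The ratio of Gabbr1 to Gabbr2, the subunits of the GABA-B pair, differed by between -4.32% and 2.39% in the 4 comparisons, with permutation p-values of 0.125 or more. The ratio of Gabra2 to Gabra4 had permutation p-values of 0.116 or more.

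**Figure D3:**
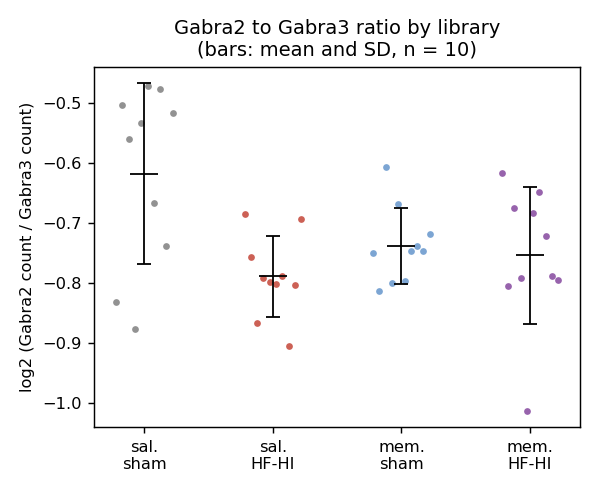
Log2 ratio of Gabra2 to Gabra3 normalised counts in each library by group (points), with the mean and SD of 10 libraries in black. Saline sham had the highest mean (-0.62) and the largest SD (0.15) of the 4 groups, and the other means lay between -0.79 and -0.74.

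Members also varied between libraries of the same group. After group means were removed, 21 couples of members were correlated over the 40 libraries, with permutation p-values adjusted over the 21. Gabra4 and Gabrb2 rose and fell together most closely, with Pearson's r = 0.66 (permutation p = 2e-05, adjusted 0.00042) and Spearman's rho = 0.67 (permutation p = 1e-05, the smallest that 100000 resamples give, adjusted 0.00021). Without the 2 libraries farthest from the median of Gabra4 r was 0.61, and within the 4 groups it was between 0.55 and 0.83. Gabra2 and Gabrb1 had r = 0.58 (permutation p = 6e-05, adjusted 0.00063) and rho = 0.55 (permutation p = 0.00026, adjusted 0.00273), with r = 0.49 without the 2 farthest libraries. Within groups that relation was uneven, with r = 0.87 in saline sham and 0.3 in saline HF-HI, and with memantine 0.18 in sham mice and 0.69 after HF-HI. Gabra4 and Gabrb1, whose gene records overlap head to head, had r = 0.064 and rho = 0.023 (permutation p = 0.695 and 0.888, adjusted 0.859 and 0.933).

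Gabra4 and Gabbr1 had r = 0.5 and rho = 0.49 (permutation p = 0.00115 and 0.00187, adjusted 0.00805 and 0.0131), and r was 0.46 without the 2 farthest libraries. Gabrb1 and Gabbr2 had an inverse relation, with r = -0.45 (permutation p = 0.00349, adjusted 0.0183) and rho = -0.34 (permutation p = 0.0323, adjusted 0.1), and r was -0.31 without the 2 farthest libraries. Within groups it was -0.29 in saline sham and -0.81 in saline HF-HI, and with memantine 0.12 in sham mice and -0.53 after HF-HI, so 1 group went the other way. The GABA-B pair itself, Gabbr1 and Gabbr2, had r = 0.3 and rho = 0.29 (permutation p = 0.062 and 0.0675, adjusted 0.145 and 0.158).

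The level of Gabra4, whose subunit is abundant in thalamic relay neurons, followed the thalamic marker list across libraries. That list held 5 transcripts in the table, of Prkcd, Rora, Plekhg1 and Slc17a6, and its summed level ran from 4417 to 13312 normalised counts over the saline HF-HI libraries and from 5392 to 11363 over saline sham. Given as a description over 40 libraries with group means removed, r with the list was 0.85 for Gabra4, 0.69 for Gabrb2 and 0.67 for Gabbr1, and without the 2 libraries farthest from the median of the list it was 0.83, 0.73 and 0.59. Group means of the list lay between 7218 and 7473, so it differed far more between libraries than between groups. With the thalamic mean as a covariate the SE of the Gabra4 change under saline was 0.0175 on the deposited scale and the change was -0.00026 (p = 0.988 in limma). Gabrb2 had 0.055 with that covariate (SE 0.018, p = 0.00444, adjusted p = 0.247 in limma). Its part in the levels of these members was not tested further.

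Other members followed other lists. Gabrb1 had r = 0.66 with the interneuron list and -0.56 with the list of excitatory cortical neurons, and Gabbr2 had r = 0.59 with the excitatory list. Gabra2 had r = 0.57 with the hippocampal pair, -0.56 with the oligodendrocyte list and 0.38 with the interneuron list. Gabra3 had r = -0.54 with the oligodendrocyte list. The libraries share depth scaling, and these values are descriptions only.

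**Figure D4:**
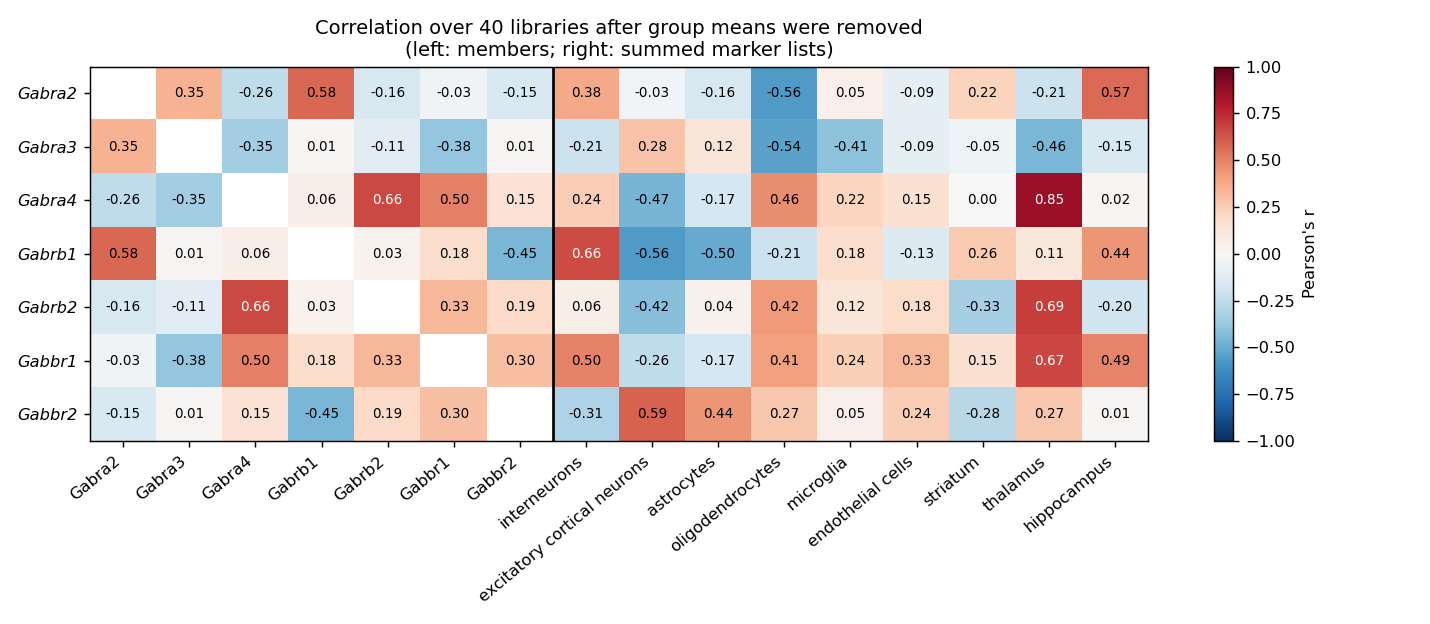
Pearson's r over 40 libraries, after group means were removed, between members (left of the line) and between members and the summed marker lists (right of the line). Gabra4 had its highest value with the thalamic list (0.85), Gabrb1 with the interneuron list (0.66) and Gabbr2 with the list of excitatory cortical neurons (0.59).

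Among all other gene symbols, those most like each member over the 40 libraries were found by Pearson's r of the summed log2 level, with group means removed. For Gabra4 they were Ptpn4 (r = 0.86) and Prkcd (r = 0.85), the latter a member of the thalamic list. For Gabrb2 they were Ttll7 (r = 0.84) and Nrip3 (r = 0.77), for Gabrb1 Zcchc12 (r = 0.81) and Nalcn (r = 0.78), for Gabra2 Chd3 (r = 0.7) and Celf4 (r = 0.69), and for Gabra3 Zfr (r = 0.75) and C1ql3 (r = 0.71). For Gabbr1 they were Zfhx3 (r = 0.83) and Slc6a11, a GABA transporter (r = 0.81). For Gabbr2 they were Kcnj9, a potassium channel subunit that GABA-B receptors can open (r = 0.74), and Extl3 (r = 0.73).

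The rest of the GABA pathway was followed in 74 transcripts of 5 lists, whose counts under saline are to be read against the 9.53% of all transcripts that passed. Under saline, the list of other GABA-A receptor subunits (5 transcripts) had 0 higher and 0 lower in HF-HI at unadjusted p under 0.05 in limma, with p-values from 0.0917 to 0.851. Gabrg1, a gamma subunit, had 716 ± 149 normalised counts in saline sham and 624 ± 101 in saline HF-HI, a log2 change of -0.19 with an SE of 0.11 (p = 0.0917, adjusted p = 0.634). Gabra5, whose subunit is known from receptors outside synapses, had 722 ± 59.3 and 764 ± 68.2 (p = 0.196, adjusted p = 0.766), and Gabrd, whose subunit serves tonic inhibition, had 1113 ± 98.9 and 1151 ± 110 (p = 0.39, adjusted p = 0.859). The median change of the list was 0.0098 on the deposited scale, beside -4.7e-05 over all transcripts.

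Genes that make, load, take up and break down GABA had 3 of 6 transcripts lower and 0 higher under saline, with a median change of -0.067 on the deposited scale. They were Aldh5a1 (GABA breakdown, log2 change -0.074, p = 0.0155), Slc32a1 (vesicular transporter, -0.18, p = 0.0359) and Gad2 (GABA synthesis, -0.17, p = 0.0397), with adjusted p-values from 0.415 to 0.492 in limma. Gad1, Gad2 and Slc32a1 of this list also stand in the interneuron list.

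Among proteins that anchor and move GABA-A receptors, 3 of 26 transcripts were lower and 0 higher, a share close to the 9.53% over all transcripts. The gephyrin transcript NM_145965 (Gphn, the scaffold of inhibitory synapses) had a log2 change of -0.28 with an SE of 0.085 (p = 0.00165, adjusted p = 0.232), and its interaction with the drug was 0.37 (p = 0.00408, adjusted p = 0.999). Its other transcript went the other way in mean, from 685 to 814 normalised counts, and the gene sum changed by -0.063 (p = 0.0467, adjusted p = 0.455). Hap1 (p = 0.0393) and Lhfpl4 (p = 0.0376) were the other lower members of this list.

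GABA-B receptor partners and effectors had 4 transcripts higher and 2 lower of 24. The higher ones were Gnai1 (log2 change 0.069, p = 0.00558), Kcnj9 (0.11, p = 0.0151), Gnai3 (0.091, p = 0.0186) and Adcy1 (0.12, p = 0.0292), which encode inhibitory G protein subunits, a potassium channel subunit and an adenylyl cyclase. The lower ones were Gnb5 (-0.09, p = 0.0468) and Adcy5 (-0.23, p = 0.00745), and Adcy5 also stands in the striatal list. The chloride gradient list had 2 higher and 2 lower of 13, namely Stk39 (0.092, p = 0.0105) and 3 Wnk1 transcripts that went in both directions while the Wnk1 sum did not pass (p = 0.268). None of the transcripts of these 5 lists had an adjusted p under 0.1 in limma, where the adjusted values of those named lay at 0.232 or above.

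With the striatal mean as a covariate, the counts under saline became 0 higher and 0 lower for GABA synthesis to breakdown and for GABA-B partners, and stayed at 0 for other GABA-A receptor subunits in limma. They became 0 and 1 for anchoring and trafficking, which was Gphn NM_145965 (p = 0.0173, adjusted p = 0.727), and 2 and 1 for the chloride gradient. Over all transcripts this covariate lowered the calls from 651 to 391, or 5.72%. Adcy5 is itself part of the striatal mean, so its fit with that covariate is not independent of it.

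Under memantine, HF-HI gave fewer calls in 4 of these lists than under saline, a difference that was not itself tested. Calls over all transcripts were also fewer, with 315 (4.61%) under memantine and 651 (9.53%) under saline. The counts higher and lower were 0 and 2 for anchoring and trafficking, 1 and 0 for GABA-B partners, and 0 and 0 for the other lists in limma. Trak2, an adaptor of transport along microtubules (-0.055, p = 0.0189), and Lhfpl4 (-0.078, p = 0.0353) were lower. Gnai3 was higher (0.08, p = 0.0417). All of these had an adjusted p of 0.967. How many of all transcripts passed in both drug arms in the same direction was not counted. Lhfpl4 and Gnai3, picked from the 74 list transcripts after the fits, did so. With the striatal covariate neither passed in limma, with p = 0.207 under saline and 0.0559 under memantine for Lhfpl4, and 0.114 and 0.065 for Gnai3.

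**Figure D5:**
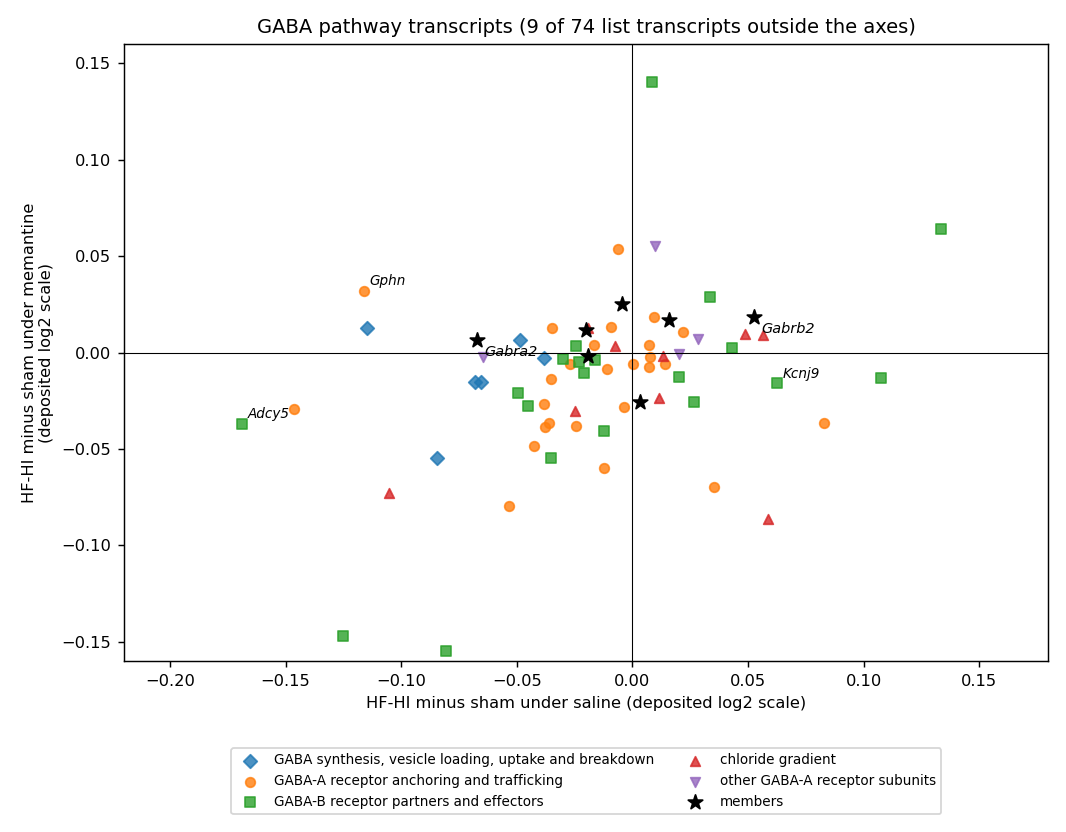
Change from sham to HF-HI on the deposited log2 scale under saline (x) and under memantine (y) for 74 transcripts of 5 GABA pathway lists (coloured) and the 7 members (stars); 9 list transcripts lie outside the axes. Kcnj9 and Gabrb2 lie to the right and Gphn NM_145965, Adcy5 and Gabra2 to the left of 0 under saline, and the x and y values come from separate libraries.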

How the data were processed

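Per the authors' methods, cortical RNA was depleted of ribosomal RNA and sequenced as stranded paired-end libraries, aligned with STAR, counted per RefSeq transcript with eXpress and scaled with DESeq2. The submitters' processing notes name HISAT2 and StringTie with mm10 instead, and the difference could not be settled. The deposited values are log2 values after the authors' variance-stabilising transformation, for 6831 transcripts. The series text gives 4 samples per group, whereas the labels give 10. The transformation was inverted to normalised counts, and all values under 5000 were whole reads times a library factor (tolerance 0.1). Differences were tested with limma 3.58.1 (R 4.3.3) on the deposited values of all 40 libraries, with a term per group, a trended variance prior and Benjamini-Hochberg adjustment over 6831 transcripts. Changes in log2 counts came from the same fit on log2 of the count plus 1. Calls used unadjusted p under 0.05 and adjusted p under 0.1. For these data the study gave P under 0.05 with DESeq2, without saying there whether that P was adjusted. Permutation tests were two-sided with 100000 resamples (scipy 1.17.1). The members and gene lists were chosen with earlier results of these data known, and some genes of the pathway are not reported here. All members were named, with the 2 symbols most like each and up to 8 members per pathway list with the smallest p. Other choices, including another scaling, filters, covariates, a replicate block and leaving out each library, are given at the end. The fit was also run on simulated data. The planted changes there were larger than any seen in the members, so that run does not cover changes of their size. Isoform shares were not tested, since each member had 1 transcript.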

Additional observations from a re-analysis of the deposited data

Results flagged for a closer look

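The Gabra2 impact change differed between the drug arms by a log2 value of 0.16 in the interaction term (p = 0.0144, adjusted p = 0.999 in limma), which is why it is listed. The saline sham group, with 1540 ± 134 normalised counts, stood above the other groups, which lay between 1393 and 1417.

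In 28 groups of 10 values tested for a library far from the rest, 2 were found, and chance gives about 1 group in 20. Gabra3 had 2079 normalised counts in saline HF-HI replicate 10, against a group median of 2466. Without it the change under saline had p = 0.163 in limma, against 0.456 with it. Gabbr2 had 4359 normalised counts in memantine HF-HI replicate 8, against a group median of 5158. Without it memantine averaged over sham and HF-HI mice had a Gabbr2 change of 0.044 on the deposited scale (p = 0.0368, adjusted p = 0.571 in limma), against 0.034 (p = 0.127) with it.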

How the results depend on the processing

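Counts of members past unadjusted p under 0.05 in limma were repeated under each alternative. For HF-HI under saline the count was 2, and it became 1 with quantile normalisation, with the striatal, hippocampal or interneuron covariate, with the saline libraries alone and at p under 0.01, Gabra2 being the member left each time. For impact averaged over both drug arms the count was 2, and it became 1 with quantile normalisation or median centring, and 0 with the replicate block, with the striatal, hippocampal or interneuron covariate and at p under 0.01. The interaction count of 1 became 0 at p under 0.01 and with the interneuron covariate. For memantine averaged over both impact arms the count of 0 became 1 with the striatal covariate (Gabbr2) and with the hippocampal covariate (Gabra2). The gene sums gave the same counts and changed in the same way. With the striatal covariate they became 1 under saline, 0 for averaged impact and 1 for memantine averaged. With the replicate block they became 0 for averaged impact. Each member had 1 transcript, so its gene sum was that transcript's count, and this likeness is no separate check. Leaving out 1 library at a time gave 1 to 2 members under saline, 0 to 2 for averaged impact, 1 to 2 for memantine in sham mice, 0 to 1 for memantine averaged, 1 for the interaction and 0 for the other comparisons, and gene sums had the same ranges. The second member in sham mice was Gabbr2 without memantine sham replicate 9 (p = 0.0492). For memantine averaged, Gabra2 passed without saline sham replicate 4 or 7 or memantine HF-HI replicate 6 (p from 0.0413 to 0.0473). Directions reversed for Gabbr1 with quantile normalisation (memantine in sham mice -0.021, averaged -0.0069), for Gabbr2 with the striatal covariate (HF-HI under saline -0.028), and with the interneuron covariate for Gabrb1 (under saline 0.00903, memantine in sham mice 0.0028, interaction -0.0029, averaged impact 0.0076) and Gabbr1 (under saline 0.0071, interaction -0.014), all on the deposited scale, from changes that had not passed. The causes were not tested. The thalamic, hippocampal and interneuron covariates and a scaling of recovered reads to the library total were added after the data were seen. Replicate numbers did not pair the libraries, since 60 same-number correlations of residuals ran from -0.13 to 0.16 with a median of -0.00029, and 3 of 40 libraries correlated best with their own number. With the replicate block the counts were 2 under saline (Gabra2 p = 0.00393, Gabrb2 p = 0.0432), 0 under memantine and 0 averaged. The logit form of isoform shares was not run, and the most abundant transcript equals the sum for every ratio.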
